A study of Homo sapiens with 6 samples.

Results

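PC3 cells, a long-established line from a human prostate carcinoma, were given an siRNA pool against NRP2 and compared with PC3 cells given a scrambled siRNA. The comparison takes 4 of the 6 arrays of the series, 2 labelled as transfected with NRP-2 siRNA and 2 labelled as treated with scrambled siRNA. Its members are all genes with a probe set annotated to a single gene, 19775 in number, of which 11131 had a mean signal of at least log2 4 over the 6 arrays and were tested. The remaining 2 arrays came from cells given VEGF-C siRNA, against the secreted ligand, and serve here as a second siRNA group.

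All groups were grown in RPMI medium with 10% serum, transfected with DharmaFECT lipid reagents and harvested 72 h later, and 6 ug of total RNA went into each labelling. Per the labels, the NRP-2 pool came from Santa Cruz Biotechnology and the VEGF-C pool from Dharmacon; the source of the scrambled siRNA is not given in the sources used here. A single pool was used against NRP2, so whether a difference came with the loss of NRP2 or with the sequences of the pool was not tested. Whether both arrays of a group came from separate cultures is not stated in the labels, so any p-value measures only the spread between these arrays, which may be technical. Each array reads RNA of a whole culture, in which fewer cells of a kind and less RNA per cell cannot be told apart.

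Neuropilin-2, the product of NRP2, is a transmembrane co-receptor without a kinase of its own. It binds VEGF-C together with VEGF receptors, and class 3 semaphorins together with plexins, and it is known for its part in lymphatic vessel growth and axon guidance. In prostate and other carcinomas it is also found on the tumour cells, where VEGF-C signalling through it has been tied to survival under stress.

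The values are log2 signals per probe set, and a difference below is the mean of the NRP-2 arrays minus the mean of the scrambled arrays on that scale, with its standard error (SE) from limma and n = 2 arrays a group. Values of a gene are given for array 1 and then array 2 of each group. The array medians lay between 3.0 and 3.07. All 10 epithelial and mesenchymal genes known from PC3 cells, such as KRT8, VIM and CD44, were past the low-value filter, with mean levels of 13.63 and 13.73 on the scrambled arrays and 13.6 and 13.62 on the NRP-2 arrays. Of markers of other cells, 1 of 11 endothelial genes (PECAM1), 1 of 12 immune genes (LYZ) and 3 of 11 fibroblast genes (COL1A1, COL3A1 and ACTA2) were past it, as were 5 of 11 luminal prostate and 3 of 12 neuroendocrine genes. The whole endothelial list had mean levels of 3.28 and 3.37 on the scrambled arrays and 3.2 and 3.4 on the NRP-2 arrays. The immune list stood at 2.66 and 2.72 against 2.6 and 2.84, and the fibroblast list at 4.1 and 4.15 against 4.03 and 4.19. The luminal list stood at 5.46 and 5.6 against 5.32 and 5.56 and the neuroendocrine list at 3.72 and 3.66 against 3.54 and 3.51.

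NRP2 itself was measured first, as a check of the labels. Its level was 4.77 and 4.92 on the scrambled arrays and 3.41 and 2.81 on the NRP-2 arrays, a difference of -1.74 (SE 0.26, limma's adjusted p = 0.213). Both NRP-2 arrays lay below both scrambled arrays, near the middle of all probe sets on an array, so the size of the difference is limited by the floor of the measurement. This check rests on 1 dim probe set of 11. Its mean over all arrays was 4.57, and it passed the filter only because the VEGF-C arrays, where it was highest, were included. Over the scrambled and NRP-2 arrays alone its mean lay just below the filter. The other 10 probe sets had means below the filter over all arrays and differences between -0.52 and -0.01. On the VEGF-C arrays NRP2 stood at 5.51 and 6.01, above both other groups. VEGFC, the ligand gene, was 11.81 and 11.80 with scrambled siRNA and 11.99 and 11.67 with NRP-2 siRNA, so those groups overlapped (+0.02, SE 0.39), and its sign turned in some settings. NRP1, the related co-receptor, read 14.69 and 14.89 with scrambled siRNA and 13.94 and 14.51 with NRP-2 siRNA (-0.57, SE 0.23). Its 3 probe sets gave -1.14 to -0.57, and the difference was -0.28 without NRP-2 array 1.

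No gene passed a Benjamini-Hochberg adjusted p under 0.05 in limma, in either direction, and the lowest adjusted p was 0.138. An unadjusted p under 0.05 was found for 1478 genes (13.3% of those tested), 716 higher (6.43%) and 762 lower (6.85%), beside 556.55 that such a threshold gives by chance. No gene below is therefore called changed. The counts depended on the arrays. Without scrambled array 1 the counts were 406 and 323, without scrambled array 2 they were 428 and 400, without NRP-2 array 1 they were 416 and 435, and without NRP-2 array 2 they were 1410 and 1296. The NRP-2 arrays did not stand equally far from the controls. On array 1, 917 genes were at least log2 1 from the scrambled mean, and on array 2, 176 genes. The plot of all genes tested shows this spread of differences, in which 225 genes were at least 2-fold higher and 161 at least 2-fold lower.

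**Figure D1:**
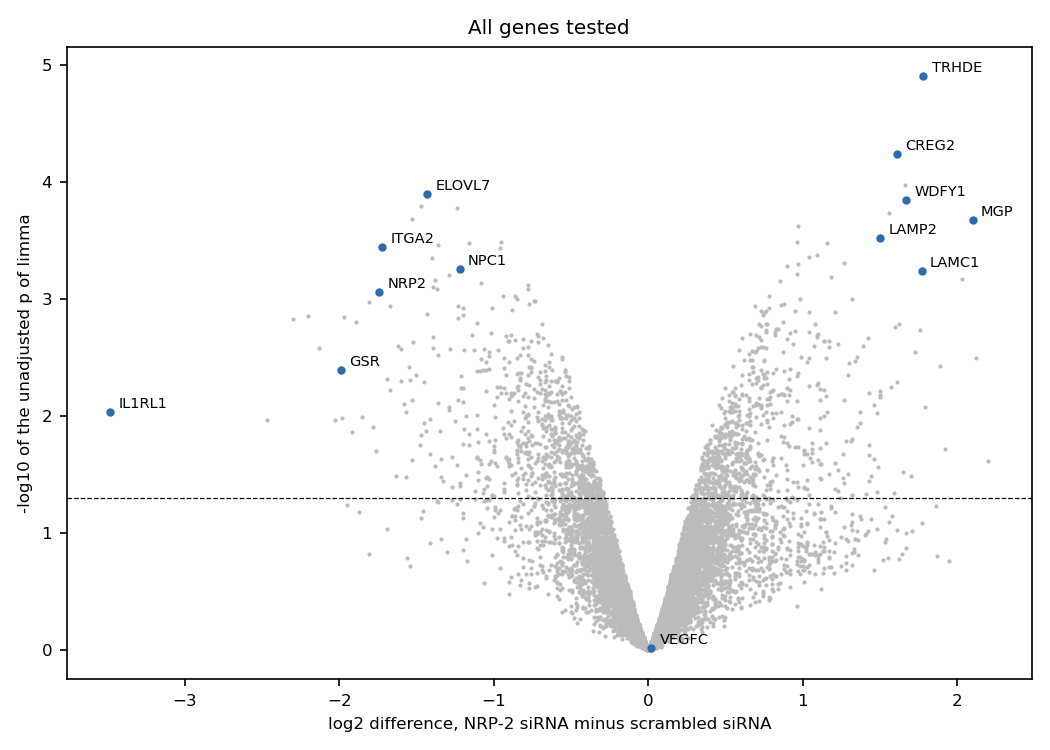
Each grey point is 1 of the 11131 genes tested, with the log2 difference of NRP-2 minus scrambled siRNA on the horizontal axis and the -log10 of limma's unadjusted p on the vertical axis; the dashed line marks an unadjusted p of 0.05. TRHDE (+1.78) lies highest, IL1RL1 (-3.48) farthest to the left, and the targeted NRP2 at -1.74, while none passed after adjustment.

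The 12 higher genes with the smallest p, among those at least log2 1 apart and without overlap of the 4 arrays, are given first. In all, 151 genes (1.36%) met that condition upward and 154 (1.38%) downward. TRHDE, which encodes a membrane peptidase that degrades thyrotropin-releasing hormone, was 7.93 and 7.97 with scrambled siRNA and 9.78 and 9.68 with NRP-2 siRNA (+1.78, SE 0.12). MGP, a secreted inhibitor of calcification, read 7.44 and 7.31 on the scrambled arrays and 9.72 and 9.24 on the NRP-2 arrays (+2.10, SE 0.24). PLSCR4, a member of the phospholipid scramblase family, read 5.29 and 5.31 against 6.87 and 6.84 (+1.56, SE 0.17). In each of these the gap between the groups was several times the gap within them, which the choice by small p and non-overlap favours. On the VEGF-C arrays TRHDE was at +0.89, MGP at +0.78 and PLSCR4 at +0.57 against the scrambled arrays.

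CREG2, a secreted glycoprotein gene, was 5.92 and 6.07 with scrambled siRNA and 7.56 and 7.65 with NRP-2 siRNA (+1.61, SE 0.14), while its VEGF-C difference was -0.66. WDFY1 encodes an endosomal protein that binds phosphatidylinositol 3-phosphate. It read 10.10 and 10.43 on the scrambled arrays and 12.04 and 11.83 on the NRP-2 arrays (+1.67, SE 0.18), beside +1.45 with VEGF-C siRNA. LAMC1, the laminin gamma 1 chain of basement membranes, was 9.0 and 9.5 against 11.02 on both NRP-2 arrays (+1.77, SE 0.25), beside +1.24 with VEGF-C siRNA. Its other probe set went the other way, at -0.60, and the mean of both was +0.58.

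The rest of the higher genes were LINC00294 (+1.66), a long noncoding RNA, LAMP2 (+1.5), SMAP2 (+1.27), a GTPase-activating protein of vesicle traffic, FBXL12 (+1.16), an F-box protein of ubiquitin ligases, TRIM7 (+1.09) and COMMD2 (+1.04). For the mean of all probe sets TRIM7 was +0.60 and COMMD2 +0.59. With VEGF-C siRNA FBXL12 was at +1.00, LINC00294 at +0.78, SMAP2 at +0.72, TRIM7 at +0.41 and COMMD2 at +0.09. Limma's adjusted p of the 24 genes in both directions ran from 0.138 to 0.213.

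The 12 lower genes were chosen by the same rule. ITGA2, the collagen-binding integrin alpha 2 chain, read 13.64 and 13.59 with scrambled siRNA and 11.60 and 12.19 with NRP-2 siRNA (-1.72, SE 0.22), and its second probe set gave -1.83. ELOVL7, an elongase of long-chain fatty acids, was 8.58 and 8.80 against 7.17 and 7.36 (-1.43, SE 0.15). ACOXL, a gene of the acyl-CoA oxidase family, was 8.09 and 7.82 against 6.36 and 6.5 (-1.53, SE 0.17). The groups of all these genes stood apart, as the rule of choice required. On the VEGF-C arrays ITGA2 (-0.16) and ELOVL7 (-0.14) were close to the scrambled level while ACOXL was at -0.76.

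COPS4, a subunit of the COP9 signalosome that removes NEDD8 from cullin ligases, was 11.74 and 11.76 on the scrambled arrays and 10.16 and 10.41 on the NRP-2 arrays (-1.47, SE 0.16). Of the 26 signalosome and cullin ligase genes it was the only lower one at an unadjusted p under 0.05 (6.85% of all genes). COPS7B was the only higher one (+0.44, beside 6.43% of all genes), and the median of the 26 genes was 0.02 beside 0.01 over all genes. SEPTIN2, a cytoskeletal GTPase, was 13.78 and 13.82 against 12.27 and 12.75 (-1.29, SE 0.18), with its 3 probe sets between -1.73 and -1.29. HMGN1, a nucleosome-binding protein, was at -1.38, FAM20B, a xylose kinase of proteoglycan synthesis, at -1.40 and TLNRD1 at -1.16. GAS6-AS1 (-1.36), ZBTB34 (-1.24) and TMEM140 (-1.08) complete these genes together with NPC1.

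**Figure D2:**
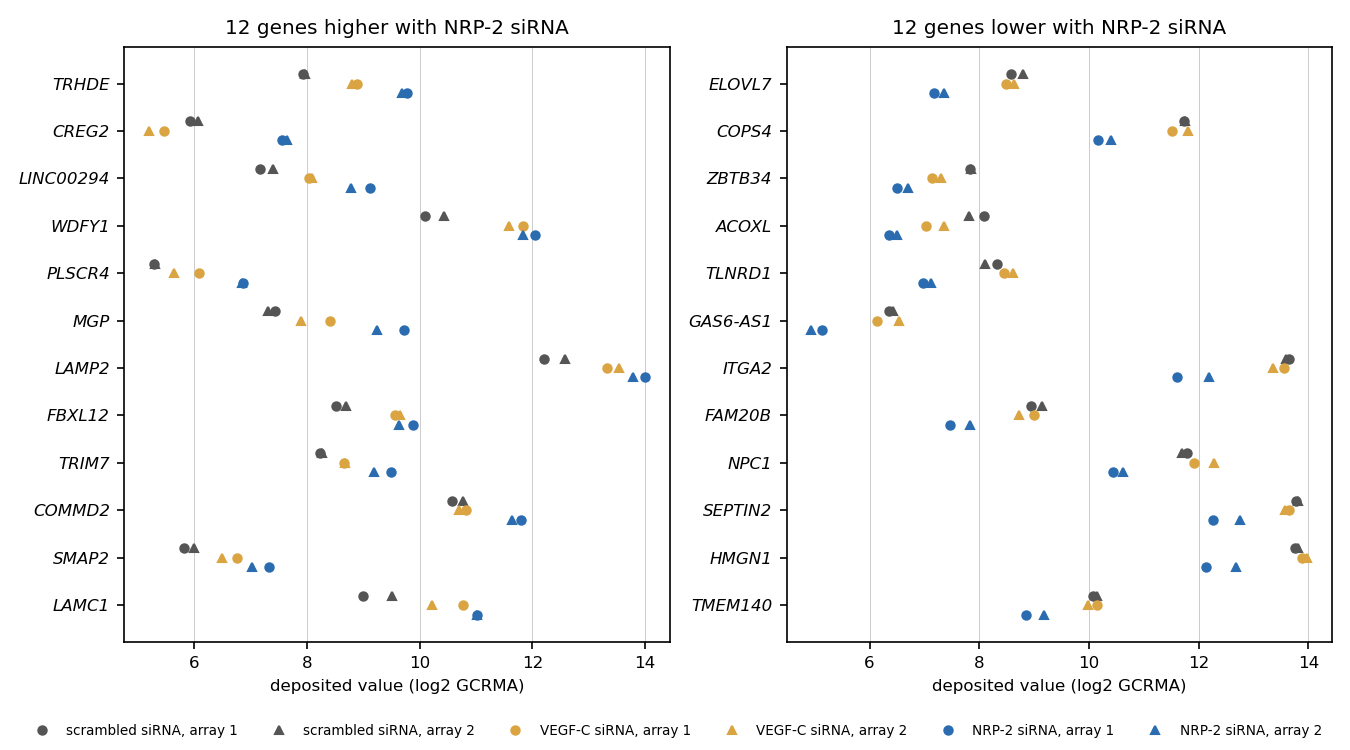
Deposited log2 value on each of the 6 arrays for the 12 higher and 12 lower genes with the smallest p; grey marks scrambled, yellow VEGF-C and blue NRP-2 siRNA, circles array 1 and triangles array 2. In every gene both blue points lie on the same side of both grey points, as the rule of choice required. For CREG2 and NPC1, among others, the yellow points lie beyond the grey ones on the opposite side. For TRHDE and WDFY1, among others, they lie on the same side as the blue points.

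Several genes carry more than 1 probe set, which reads the same RNA at other places of the transcript. Of the 1478 genes above, 744 had a second probe set past the filter. It went the same way in 650 (87.4%) and had an unadjusted p under 0.05 of its own in 314. The like share over all genes was not counted. Both probe sets read the same RNA on the same arrays, so their agreement is no second measurement of the siRNA. FAS, the death receptor, was 7.23 and 7.10 with scrambled siRNA and 9.32 and 8.24 with NRP-2 siRNA (+1.61, SE 0.36), and its 4 probe sets lay between +1.52 and +2.20. Without NRP-2 array 1 FAS was at +1.07, and on the VEGF-C arrays FAS was at +1.13. CDK6, a cyclin-dependent kinase of the G1 phase, was 9.67 and 10.26 against 11.50 and 11.35 (+1.46, SE 0.47), with 5 probe sets between +0.65 and +1.72. PAG1, a membrane adaptor that binds CSK, was at +1.62. TMEM97, the sigma-2 receptor that interacts with NPC1, was at +1.73, and PAG1 and TMEM97 had all probe sets above 0. On the VEGF-C arrays TMEM97 was at +0.97, CDK6 at +0.43 and PAG1 at +0.42. FAS, CDK6, PAG1 and TMEM97, like SEPTIN2, IL1RL1 and CXADR, met the naming rule that all probe sets agree without overlap. Their agreement is thus part of the choice and no separate support.

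IL1RL1, the receptor for interleukin-33, had the lowest difference of all genes tested. It read 9.90 and 9.92 on the scrambled arrays and 5.12 and 7.73 on the NRP-2 arrays (-3.48, SE 0.89), and its 3 probe sets lay between -3.48 and -1.66. Both NRP-2 arrays were below both scrambled ones, but they differed from each other by more than log2 1, and without array 1 the difference was -2.18. CXADR, the coxsackievirus and adenovirus receptor of tight junctions, was 12.12 and 12.46 against 10.23 and 11.11 (-1.62, SE 0.31). On the VEGF-C arrays CXADR was at -0.99 and IL1RL1 at +0.50. CLDN11, a claudin of tight junctions, had the highest difference of all genes at an unadjusted p under 0.05, at 8.38 and 7.05 with scrambled siRNA and 10.70 and 9.11 with NRP-2 siRNA (+2.20, SE 0.71). It was at +1.40 without NRP-2 array 1 and at +1.11 when the mean level of the G2 and mitosis genes on each array was a covariate in the fit.

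**Figure D3:**
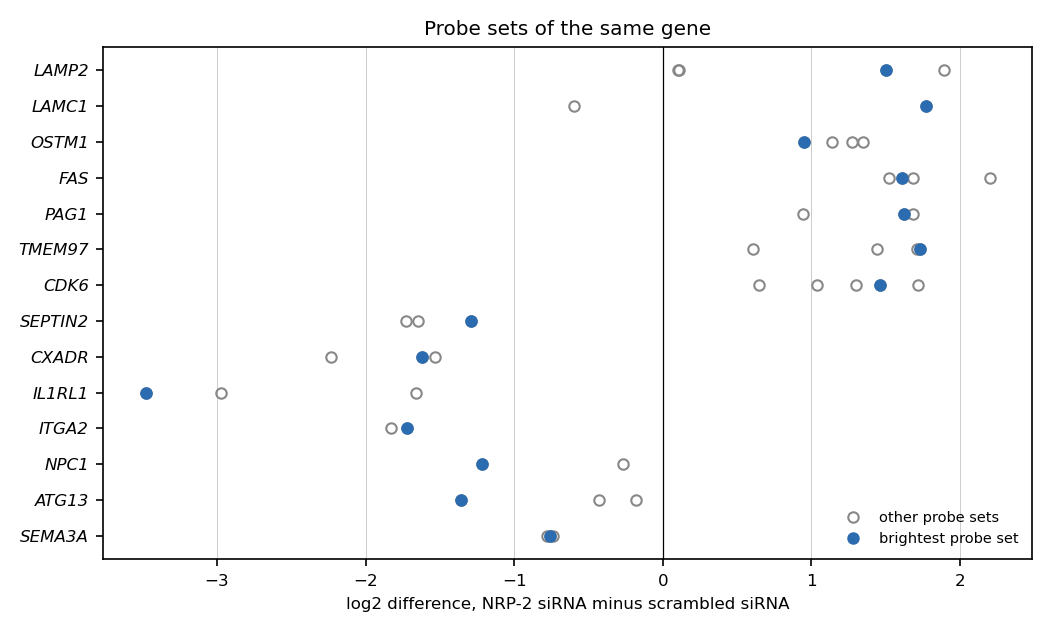
Log2 difference of NRP-2 minus scrambled siRNA for every probe set past the filter of 14 genes; the filled point is the brightest probe set, which represents the gene, and open points are the others. The probe sets of FAS, OSTM1, SEPTIN2 and IL1RL1 lie on the same side of 0, and those of LAMC1 lie on both sides. Those of LAMP2 and NPC1 are spread widely. FAS, SEPTIN2 and IL1RL1 are among the genes that met the naming rule of agreeing probe sets.

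The study's title names autophagy, the digestion of cell contents in lysosomes. LAMP2, a heavily glycosylated protein of the lysosomal membrane that also serves autophagosome fusion, was 12.20 and 12.58 with scrambled siRNA and 14.00 and 13.78 with NRP-2 siRNA (+1.5, SE 0.18). Its other probe sets gave +0.11, +0.10 and +1.89, and their mean with the first was +0.90. OSTM1, the partner of the lysosomal chloride exchanger CLCN7, was 9.57 and 9.74 against 10.74 and 10.47 (+0.95, SE 0.16), with 4 probe sets between +0.95 and +1.35. The lysosomal cation channel gene MCOLN2 read 7.49 and 7.50 against 8.30 and 8.14 (+0.73, SE 0.17). On the VEGF-C arrays LAMP2 was 13.32 and 13.54 (+1.05), so it was above the scrambled arrays there too, and it stood 0.45 higher with NRP-2 than with VEGF-C siRNA (limma's adjusted p = 0.284). OSTM1 (-0.13) and MCOLN2 (+0.02) lay near the scrambled level on those arrays.

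NPC1, which exports cholesterol from lysosomes, lay in the other direction, at 11.79 and 11.70 with scrambled siRNA and 10.43 and 10.62 with NRP-2 siRNA (-1.22, SE 0.17). Its second probe set gave -0.27 and the mean of both -0.74. With VEGF-C siRNA NPC1 was at +0.35, and its difference between the siRNAs was -1.57. Over all 30 lysosomal membrane genes tested, 14 were above 0 (51.8% of all genes were), and the median was -0.01. At an unadjusted p under 0.05, 6 were higher and 2 lower, beside 6.43% and 6.85% of all genes. Of 35 lysosomal hydrolases and activators, 1 was higher and 4 lower at that p (6.43% and 6.85% of all genes), with a median of -0.11. ACP2, a lysosomal acid phosphatase, stood at -0.80, MAN2B1, an alpha-mannosidase, at -0.52 and CTSD, the aspartic protease cathepsin D, at -0.42. GLA, the alpha-galactosidase, was at +0.96, and at +0.45 without NRP-2 array 1. The 15 vacuolar ATPase genes, which acidify lysosomes, had a median of -0.04.

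Genes of autophagy itself showed no common direction. Of 37 genes of initiation and membrane growth, 16 were above 0, and the median was -0.05. At an unadjusted p under 0.05, 2 were higher and 3 lower, beside 6.43% and 6.85% of all genes. ATG13, of the ULK1 initiation complex, was 9.43 and 9.27 against 7.67 and 8.31 (-1.36, SE 0.27), with -0.66 for the mean of its probe sets. PIK3R4, a subunit of the VPS34 lipid kinase complexes, was at -0.76, MAP1LC3B, an LC3 protein that is joined to lipid on autophagosomes, at -0.35, ATG12 at +0.51 and the protease ATG4A at +0.54. Among 29 receptors and fusion factors the counts at that p were 2 and 3, beside the same shares of all genes, with a median of -0.06. The HOPS tethering genes VPS39 (-0.57) and VPS41 (-0.33) and the ER-phagy receptor RTN3 (-0.60) were lower, and the tethers EPG5 (+0.57) and TECPR1 (+0.29) higher. For the mean of its probe sets VPS41 was at -0.74 and EPG5 at +0.27.

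Regulators of mTORC1, the growth kinase that is switched on at lysosomes by amino acids, were spread to both sides. Of 40 genes, 20 were above 0, 6 were higher and 5 lower at an unadjusted p under 0.05 (6.43% and 6.85% of all genes). RRAGD, a Rag GTPase that brings mTORC1 to lysosomes, was 7.63 and 7.57 with scrambled siRNA and 6.75 and 6.68 with NRP-2 siRNA (-0.88, SE 0.14), and RRAGB was at -0.81. TSC1, of the complex that inhibits mTORC1 through RHEB, was at -0.90, and its partner TBC1D7 at +0.65 (+0.39 without NRP-2 array 1). SESN3, a sestrin that restrains mTORC1, was at +0.91 and LAMTOR4, a subunit of the Rag anchor, at +0.52. Of 39 phosphoinositide genes 2 were higher and 3 lower at that p, close to the shares of all genes (6.43% and 6.85%). They were WDFY1 and the phosphatase MTMR6 (+0.88, and +0.44 for the mean of its probe sets), and MTMR9 (-0.64), PI4KB (-0.45) and MTMR2 (-0.44, and -0.28 without scrambled array 1).

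Genes of cholesterol synthesis and sterol control stood mostly above the scrambled level. Of 27 tested, 18 were above 0, beside 51.8% of all genes. At an unadjusted p under 0.05, 11 were higher and 1 was lower, beside 6.43% and 6.85% of all genes. The median was 0.22 on the NRP-2 arrays and -0.16 on the VEGF-C arrays, both set against the shared scrambled arrays, and 0.48 between the siRNAs, where 13 genes were higher (9.54% of all genes) and 1 was lower. The median lay between 0.13 and 0.30 when any 1 array was left out. LSS, which closes the sterol ring, was 8.62 and 8.90 with scrambled siRNA and 9.33 and 9.21 with NRP-2 siRNA (+0.52, SE 0.14). STARD4, a cytosolic sterol carrier, read 7.27 and 8.44 against 9.14 and 9.03 (+1.23, SE 0.47), with +0.64 without scrambled array 1. SOAT1, which esterifies cholesterol for storage, read 7.72 and 8.09 against 9.19 and 9.09 (+1.23, SE 0.42).

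Further synthesis genes on the higher side were ACAT2 (+0.86), MSMO1 (+0.67), IDI1 (+0.65), EBP (+0.63), NSDHL (+0.56) and FDPS (+0.39), and MYLIP (+0.53), which marks the LDL receptor for degradation, and LPIN1 (+0.51) stood with them. Without NRP-2 array 1 ACAT2 was at +0.52, IDI1 at +0.43, EBP at +0.33, NSDHL at +0.36 and FDPS at +0.23. Not all steps went this way. TM7SF2, a sterol reductase, was 8.42 and 8.47 against 6.97 and 7.52 (-1.20, SE 0.20). HMGCS1 stood at -0.22 and the transcription factor gene SREBF2 at -0.09, and without NRP-2 array 1 both were above 0 (+0.06 and +0.07). Fatty acid synthesis genes were divided, with the elongase ELOVL2 at +1.34, the acyl-CoA ligase ACSL1 at +0.59 and FASN, the fatty acid synthase, at -0.32 (13 of 22 above 0, median 0.13). The sterol response motif TCACNCCAC was in 1 of 24 promoters of the sterol list (4.17%), that of SREBF2. It was in 1.15% of all promoters and in 1.06% of those of tested genes.

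Genes of the integrated stress response, which is run by the transcription factor ATF4 and supplies amino acids, were mostly lower. Of 30, 27 were below 0 (48.2% of all genes were) and in 19 both NRP-2 arrays lay below both scrambled arrays, beside 24.4% of all genes, while 2 were lower at an unadjusted p under 0.05, beside 6.85%. GDF15, a secreted stress cytokine, was 14.77 and 14.61 with scrambled siRNA and 13.36 and 13.88 with NRP-2 siRNA (-1.07, SE 0.22; -0.54 for the mean of its probe sets). PCK2, a mitochondrial enzyme of gluconeogenesis, was 10.53 and 10.27 against 8.78 and 10.01 (-1.01, SE 0.40). ASNS, the asparagine synthetase, was 14.14 and 13.93 against 12.40 and 13.87 (-0.89, and -0.16 without NRP-2 array 1), which shows how much lower array 1 was than array 2. The median of the list was -0.55 on NRP-2 array 1 and -0.14 on array 2 against the scrambled mean, and PCK2 was at -0.39 without array 1.

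The list stood at a median of 0.31 with VEGF-C siRNA, above the scrambled arrays. Between the siRNAs the median was -0.78, and 19 of 30 genes were lower with NRP-2 siRNA at an unadjusted p under 0.05 (8.66% of all genes). The cytosolic tRNA synthetases, which load tRNAs with amino acids, ran alongside. Of 18, 14 were below 0 (48.2% of all genes) and 13 had no overlap in that direction (24.4% of all genes). At an unadjusted p under 0.05, 2 were lower (6.85% of all genes). The median was -0.28, and -0.11 without NRP-2 array 1. WARS1 was at -0.82 and AARS1 at -0.52, and without NRP-2 array 1 they were at -0.46 and -0.25. HARS1 was the highest, at +0.37 (+0.11 without NRP-2 array 1). Of 14 amino acid transporters 12 were below 0, beside 48.2% of all genes (median -0.27, and -0.12 without NRP-2 array 1). The glutamine carrier SLC1A5 was at -0.64 (-0.35 without NRP-2 array 1) and SLC7A6 at +0.73 (+0.41 for the mean of its probe sets).

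Promoters of 15 of these tRNA synthetase genes were in the RefSeq table (GRCh38.p14; 250 bases before to 50 after the start). The amino acid response element, spelled TGATGCAA or TGATGAAA and sought on both strands, was found in 5 of 15 (33.3%), in 3 of 25 promoters of the stress response list (12%) and in 2.0% of all 27305 promoters. Among promoters of tested genes the share was 0.892%. Within the synthetases the median difference was -0.31 with and -0.10 without a match, and within the stress response list it was -0.28 with and -0.35 without. A match is a run of letters and no evidence of binding. The stretches of 3 matching promoters are shown because their genes bear on the list, 5′ to 3′ on the gene's strand, with the match in capitals (TTGCATCA is the element read on the other strand). They are AARS1 at chr16:70289636-70289743 (minus strand), IARS1 at chr9:92293653-92293760 (minus strand) and NARS1 at chr18:57621787-57621872 (minus strand).
AARS1: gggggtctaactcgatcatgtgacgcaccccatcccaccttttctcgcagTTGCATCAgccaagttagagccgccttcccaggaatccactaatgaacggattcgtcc
IARS1: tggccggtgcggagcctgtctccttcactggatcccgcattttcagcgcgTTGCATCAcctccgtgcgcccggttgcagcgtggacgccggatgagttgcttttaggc
NARS1: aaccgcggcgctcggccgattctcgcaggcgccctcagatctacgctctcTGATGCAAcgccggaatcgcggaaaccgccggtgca

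Interferon response genes, the antiviral programme that interferons switch on, leaned to the lower side. Of 48, 37 were below 0 (48.2% of all genes), 8 were lower (6.85% of all genes) and 1 higher (6.43%) at an unadjusted p under 0.05, and the median was -0.20 for the group and -0.22 on each NRP-2 array. UBE2L6, the conjugating enzyme for ISG15, was 12.99 and 13.13 with scrambled siRNA and 11.99 and 12.26 with NRP-2 siRNA (-0.94, SE 0.14). IFI44 read 11.08 and 11.42 against 10.49 and 10.38 (-0.81, SE 0.16), and IFIT3 read 13.31 and 13.49 against 12.87 and 12.89 (-0.52, SE 0.13). XAF1, an inhibitor of XIAP, had the lowest difference, at -1.41 (-0.78 without NRP-2 array 1), and the nuclease ISG20 the highest, at +0.59 (+0.37 without NRP-2 array 2). Leaving out 1 array put the median between -0.32 and -0.07.

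On the VEGF-C arrays the interferon list lay above the scrambled arrays, with a median of 0.34. The difference between the siRNAs, tested in the same fit, had a median of -0.55. There 29 of 48 genes were lower with NRP-2 siRNA at an unadjusted p under 0.05 (8.66% of all genes) and 0 higher (9.54%). OASL, a relative of the oligoadenylate synthetases, was at -0.53 on the NRP-2 arrays and at +0.77 on the VEGF-C arrays, both against the scrambled arrays. Over all genes, 2026 (18.2%) had an unadjusted p under 0.05 between the siRNAs. Outside the interferon genes, SLC40A1, the iron exporter ferroportin, was at +0.31 against -1.14 and LDB3 at +0.66 against -0.61 (+0.34 with NRP-2 siRNA for the mean of its probe sets).

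The lists of G2 and mitosis and of S phase had the highest medians of all lists, and they also differed between arrays of the same group. The list of cell cycle inhibitors and G1 regulators had a median of 0.09. All 50 G2 and mitosis genes were above 0 (51.8% of all genes were), with a median of 1.00. In 7 of them the groups did not overlap (25.3% of all genes were higher without overlap), and 0 had an unadjusted p under 0.05. Their mean level was 9.90 and 8.31 on the scrambled arrays, 10.65 and 9.57 on the NRP-2 arrays and 10.76 and 10.02 on the VEGF-C arrays. NRP-2 array 2 was thus below scrambled array 1, and the median ran from 0.23 to 1.84 when 1 array was left out.

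Of 46 genes of DNA replication and S phase, 44 were above 0 (51.8% of all genes), 27 had no overlap (25.3% of all genes) and the median was 0.79. At an unadjusted p under 0.05 there stood 3 (6.52%, beside 6.43% of all genes), a share near that of all genes. PCNA, the sliding clamp of DNA polymerase, was 12.71 and 12.72 with scrambled siRNA and 14.14 and 13.19 with NRP-2 siRNA (+0.94, SE 0.34). POLD3, a polymerase delta subunit, was at +0.97 and ORC6, of the origin recognition complex, at +1.01. Against the scrambled mean the list median was 1.42 on NRP-2 array 1 and 0.21 on array 2, and without array 1 PCNA was at +0.47, POLD3 at +0.52 and ORC6 at +0.61. Homologous recombination and mismatch repair genes stood at 0.86 and 0.16 on those arrays (20 of 25 above 0, beside 51.8% of all genes). The cell cycle level moved with the array as well as with the group. With the G2 and mitosis mean of each array added to the fit, 575 genes were higher and 467 lower at an unadjusted p under 0.05.

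Motifs of cell cycle promoters were counted in the same windows. An E2F motif (TTTCCCGC, TTTGGCGC, TTTGCCGC or TTTCGCGC, both strands) was in 17 of 39 S phase promoters (43.6%). It was in 3.33% of all promoters and in 5.41% of those of tested genes. The median difference was 0.94 with and 0.69 without a match. The CHR motif TTTGAA was in 32 of 44 G2 and mitosis promoters (72.7%), 15.4% of all promoters and 9.94% of those of tested genes. There the order was reversed, with 0.96 with and 1.20 without a match. The CCAAT motif was likewise in 72.7%, against 35.7% of all and 37.2% of those of tested genes, with medians of 1.03 with and 0.94 without it. The stretches below show an E2F match in PCNA (chr20:5126624-5126731, minus strand), CDC6 (chr17:40287836-40287928, plus strand) and MCM6 (chr2:135876538-135876645, minus strand, where 2 matches overlap) and a CHR match in CCNB2 (chr15:59105067-59105172, plus strand), with the match in capitals.
PCNA: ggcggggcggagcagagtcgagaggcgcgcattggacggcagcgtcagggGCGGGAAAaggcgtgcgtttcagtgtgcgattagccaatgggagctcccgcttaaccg
CDC6: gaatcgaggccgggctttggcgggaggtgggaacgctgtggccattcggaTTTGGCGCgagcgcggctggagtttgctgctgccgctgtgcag
MCM6: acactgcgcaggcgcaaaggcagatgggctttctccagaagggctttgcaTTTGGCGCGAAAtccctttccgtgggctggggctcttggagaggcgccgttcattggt
CCNB2: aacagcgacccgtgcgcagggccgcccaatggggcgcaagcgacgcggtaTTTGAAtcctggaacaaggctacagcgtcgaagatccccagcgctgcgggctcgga

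**Figure D4:**
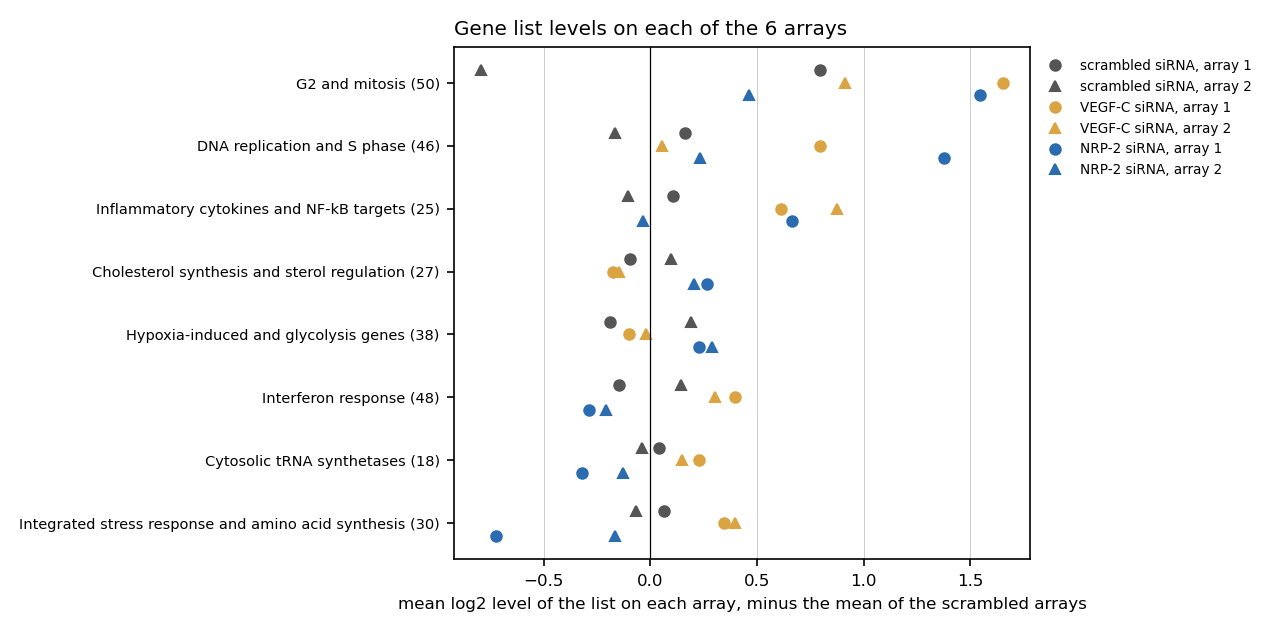
Mean log2 level of 8 gene lists on each of the 6 arrays, minus the mean of the scrambled arrays, with the number of genes in parentheses; colours mark the siRNA, circles array 1 and triangles array 2. In the G2 and mitosis list the scrambled arrays (9.90 and 8.31) overlap the NRP-2 arrays (10.65 and 9.57); in the interferon, tRNA synthetase and stress response lists both NRP-2 arrays lie below both scrambled arrays and both VEGF-C arrays above them.

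Hypoxia-induced and glycolysis genes, targets of the factor HIF1, were above 0 in 31 of 38, beside 51.8% of all genes. At an unadjusted p under 0.05, 4 were higher and 0 lower, beside 6.43% and 6.85% of all genes. The median was 0.20 and ranged from 0.03 to 0.41 when 1 array was left out. ANKRD37 read 6.93 and 7.80 with scrambled siRNA and 8.45 and 8.56 with NRP-2 siRNA (+1.14, SE 0.29), and CA12, a membrane carbonic anhydrase, 7.97 and 8.96 against 9.45 and 9.67 (+1.10, SE 0.35). Scrambled array 1 was the low one in both, and without it ANKRD37 was at +0.70 and CA12 at +0.60. VEGFA, a hypoxia target and ligand of neuropilins, had the lowest difference of the list, at -0.49 (-0.21 without NRP-2 array 1). The HIF core motif ACGTG was in 15 of 34 of these promoters (44.1%), in 21.6% of all and in 27.2% of those of tested genes. The medians were 0.20 with and 0.34 without it.

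Targets of NF-kB and inflammatory genes had a median of 0.39, which was 0.77 on NRP-2 array 1 and 0.01 on array 2. With VEGF-C siRNA the median of the list was 0.53 against the scrambled arrays, and between the siRNAs it was -0.11. C3, the central complement protein, was at +1.12 and the inhibitor gene NFKBIA at +0.77, which was +0.47 without array 1.

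Surface and matrix genes, among them semaphorins and integrins, were mixed. SEMA3A, the class 3 semaphorin that repels axons through NRP1, was 10.39 and 10.42 with scrambled siRNA and 9.49 and 9.79 with NRP-2 siRNA (-0.76, SE 0.16). SEMA3C, a ligand of both neuropilins, stood at -0.46 (-0.70 for the mean of its probe sets) and SEMA5A at -1.35 (-0.86 with the G2 and mitosis covariate), whereas SEMA6D was at +0.97. Of 19 semaphorin and plexin genes tested, 10 were above 0, with a median of 0.01. Besides ITGA2, the integrin ITGA3 was at -0.67, and the median of 14 integrins was -0.03. Among 28 matrix genes fibronectin FN1 was at -0.46 and the collagens COL5A2 at -0.90 and COL1A1 at -0.84, where without NRP-2 array 1 they were at -0.50 and -0.49, and COL1A1 was at -0.37 for the mean of its probe sets, and the median was -0.01. HAS2, a hyaluronan synthase, was 11.30 and 11.32 against 10.34 and 10.38 (-0.95, SE 0.12).

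Other growth and death genes also stood apart without overlap, which was a condition of their naming. Over all genes, 25.3% were higher and 24.4% lower without overlap. CCND2, a G1 cyclin, was 5.93 and 5.54 with scrambled siRNA and 3.53 and 4.32 with NRP-2 siRNA (-1.81, SE 0.29). Its values with NRP-2 siRNA lay close to the low-value filter of log2 4, near the floor. GSR, glutathione reductase, was 11.87 and 11.95 against 9.28 and 10.56 (-1.99, SE 0.42), and its second probe set gave -0.85. In the redox list that holds GSR, 16 of 25 genes were above 0, beside 51.8% of all genes (median 0.10). ERBB3, a receptor of neuregulins, was at -1.27 and at -0.67 without NRP-2 array 1. CASP8, the initiator caspase below death receptors such as FAS, was at -0.51, BIK, a pro-apoptotic BCL2 family member, at +0.67, and NOG, the BMP antagonist noggin, at +0.97. Ribosomal protein genes gave the narrowest list, with all 51 between -0.17 and +0.15.

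**Figure D5:**
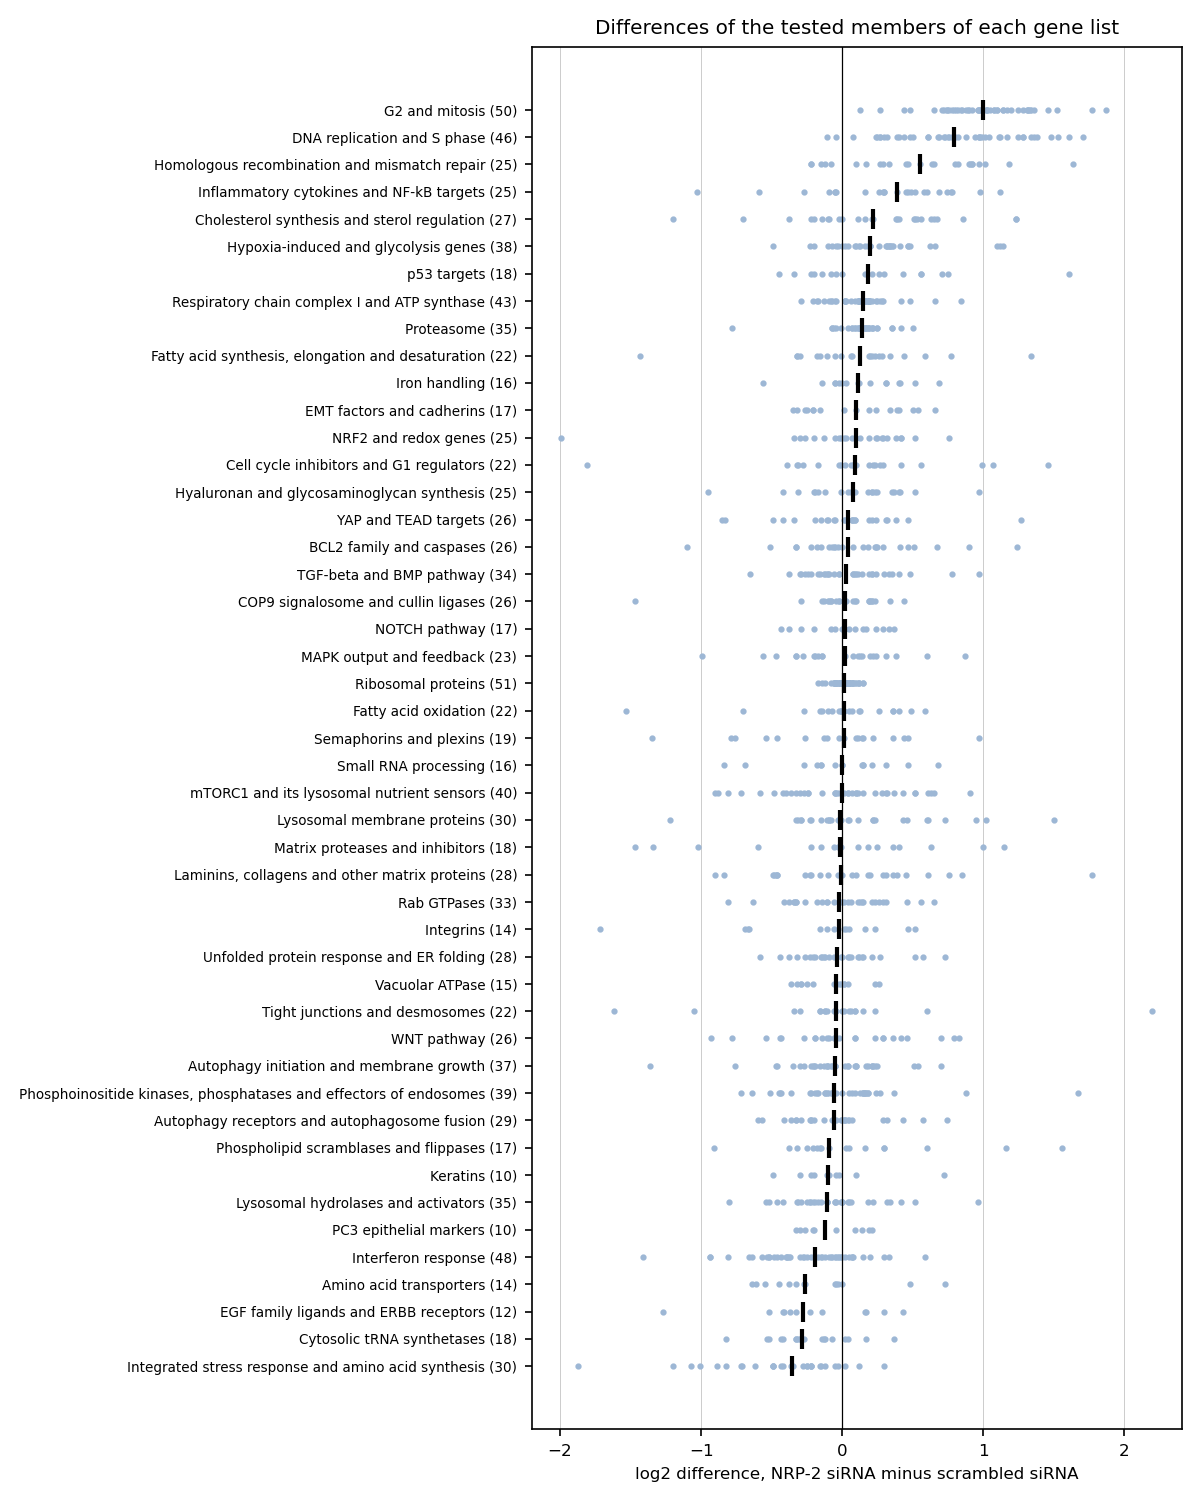
Log2 differences of NRP-2 minus scrambled siRNA for the tested members (points, number in parentheses) of the gene lists with at least 10 of them, with the list median as a black bar. Medians run from -0.35 for the integrated stress response to 1.00 for G2 and mitosis, and the median of all genes is 0.01.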

How the data were processed

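The deposited log2 values, 1 per probe set and array, came from the authors' use of Partek and GCRMA, which the submitters' processing notes name without version or settings. GCRMA corrects background by probe sequence, normalizes between arrays and summarises each probe set, and it compresses dim values. Of 54675 probe sets, 41091 had 1 gene in GEO's platform annotation, 1801 several, 11721 none, and 62 were controls. A filter at a 6-array mean of log2 4 left 19946 single-gene probe sets, and the brightest stood for each of 11131 genes. Detection calls were not used here.

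Differences were tested with limma 3.58.1 in R 4.3.3 (lmFit, eBayes, two-sided) on all 6 arrays, with degrees of freedom of 3 (residual) and 2.46 (prior), a prior SD of 0.165 and Benjamini-Hochberg adjustment over all genes. The procedure was also run on simulated arrays, drawn independently of each other with planted changes. That run checks the code and does not bear on the spread of the real arrays. Named genes are NRP2 and VEGFC, the 12 in each direction with the smallest p (log2 1 apart, no overlap), up to 3 per list and direction at an unadjusted p under 0.05 without overlap, genes with at least 3 agreeing probe sets, and genes that differ from VEGF-C siRNA. Other list members were named after their values were seen. The comparison, the lists and the rules were chosen with earlier results of these data known. The alternatives were other low-value filters, the mean of probe sets, quantile and median normalization, 4 arrays only, a replicate block, a covariate, another variance prior, and each array left out. Motifs were sought in RefSeq promoters, of which 9188 belong to tested genes.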

Additional observations from a re-analysis of the deposited data

How the results depend on the processing

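In all 15 alternatives limma called 0 genes at an adjusted p under 0.05. Genes at an unadjusted p under 0.05, 716 higher and 762 lower, ranged from 406 to 1410 and from 323 to 1296 when 1 array was left out, and 467 were lower with the array mean of G2 and mitosis genes as covariate. With array number as a replicate block the counts were 1053 and 856. With 2 numbers a pairing cannot be established: deviations of same-numbered arrays correlated at 0.58 between scrambled and NRP-2 siRNA, 0.11 between scrambled and VEGF-C siRNA and 0.12 between NRP-2 and VEGF-C siRNA. NRP2 stayed lower, from -2.04 to -1.44 when 1 array was left out, and had no value with a filter at log2 6, which it does not pass. Of 2555 values of 171 named genes, 2553 kept their direction. Most named genes were chosen for groups that did not overlap, so leaving out 1 array could not turn their sign. Some alternatives, such as another variance prior, leave the difference as it is. The count is thus largely fixed by the choice of genes. VEGFC, named without that rule, turned to -0.27 with the covariate and to -0.14 without NRP-2 array 1 (0.18 without array 2). The cause was not tested. Of the named genes, 69 moved by over 1.5 times in at least 1 alternative. The number of arrays limits the precision, and dim genes near the floor have understated differences.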
